A study of Mus musculus with 51 samples.

Results

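Apoe, Clu, Abca1, Fabp7, Fabp5, Lrp1, Srebf1, Srebf2 and Lpl are 9 genes that carry, export, take up or regulate lipids, and they were examined among 22359 coding genes of the mouse genome (mm9, GENCODE release M1). They were chosen by name, and every peak of H3K27ac or H3K4me1 that overlapped the gene body or the 10 kb on each side of it was taken. These windows held 415 of the 803595 peaks in 6 lists. The cells came from 1 in vitro system, in which embryonic stem cells of the C57/BL-6 background gave neural progenitors. The progenitors (aNPC) were kept in DMEM-F12 with N2, EGF and FGF-2. Early astrocytes (eA) and late astrocytes (lA) were obtained after 1 and 5 days in DMEM with 1% FBS and LIF, and no group carried a genetic change or siRNA.

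Neurons obtain much of their cholesterol from astrocytes, which load it with phospholipid onto apolipoprotein E through the exporter ABCA1 and release it as lipoprotein particles. Receptors such as LRP1 take these particles up, fatty acid binding proteins move fatty acids inside the cell, and the SREBP transcription factors switch on sterol and fatty acid synthesis when sterols are low. On histone H3, the acetyl group at lysine 27 (H3K27ac) is found where promoters and enhancers are in use, and the single methyl group at lysine 4 (H3K4me1) also at enhancers that are still silent.

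For each mark and stage, the reads of 2 replicates had been merged before peaks were called, so that there was 1 list per stage and mark. The lists held 79413, 83433 and 92700 H3K27ac peaks and 154238, 185478 and 208333 H3K4me1 peaks in aNPC, eA and lA. The spread between cultures cannot be known from them, the read depth behind the lists is unknown, and a gene without a peak may carry the mark below the threshold of the caller. Differences between stages are therefore described and were not tested. The strength of a peak is given as the percentile of its −log10 q within its own list, which is the share of peaks of that list with the same or a lower value. Promoters of 5 of 7 astrocyte markers carried an H3K27ac peak at each stage, with S100b in aNPC only and Gja1 in eA and lA. The same was so for 5 of 6 progenitor markers at each stage (Fabp7 among them), 1 of 5 neuron markers and 1 of 6 microglia markers, and for none of 4 oligodendrocyte, 4 fibroblast, 3 adipocyte, 3 endothelial and 3 stem cell markers. The cell makeup of the cultures was not measured by these lists, and its part in the patterns was not tested.

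H3K27ac was more widespread in the windows of the lipid genes after aNPC. The windows held 41, 61 and 51 H3K27ac peaks in aNPC, eA and lA, which covered 26.1, 32.7 and 33.0 kb. The median share of a window under H3K27ac peaks was 4.35%, 7.18% and 6.57% in aNPC, eA and lA, against 2.53%, 2.90% and 2.74% over all coding genes. H3K4me1 peaks numbered 76, 97 and 89 in these stages and covered 53.6, 58.8 and 51.5 kb. The median share of a window under H3K4me1 peaks was 10.6%, 13.1% and 11.1%, against 5.33%, 6.32% and 6.53% over all coding genes, so that the summed length was lower in lA than in aNPC while the median share was not. When the 3 lists of a mark were brought to the same number of peaks, the H3K27ac counts were 41, 59 and 48, whereas those of H3K4me1 were 76, 77 and 64. With lists of equal length, H3K4me1 peaks were thus no more numerous in lA than in aNPC.

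**Figure D1:**
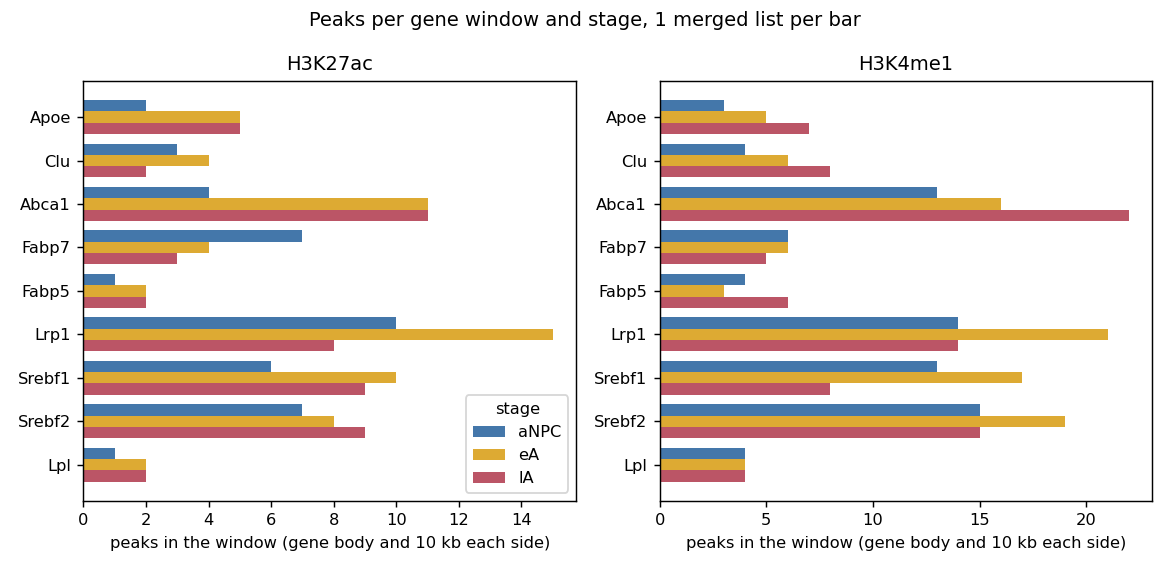
Number of H3K27ac peaks (left) and H3K4me1 peaks (right) in the window of each gene, with 1 bar per stage (aNPC, eA, lA) and 1 merged list of peaks behind each bar, hence no error bars. Abca1 went from 4 H3K27ac peaks in aNPC to 11 at each later stage, and Fabp7 from 7 to 4 and 3.

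Promoters were taken to span 1 kb before a coding start site and 100 bp after it. There, H3K27ac peaks were found in 7, 8 and 7 of the 9 genes in aNPC, eA and lA. Over all coding genes, 50.6%, 53.2% and 48.2% had such a peak at these stages. Clu, Abca1, Fabp7, Fabp5, Lrp1, Srebf1 and Srebf2 had a promoter peak at every stage. Apoe had a promoter peak in eA only, and Lpl had none. H3K4me1 was at the promoter of 8, 8 and 8 genes in aNPC, eA and lA, against 55.4%, 53.6% and 52.7% of all coding genes. The exception at each stage was Lrp1.

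**Figure D2:**
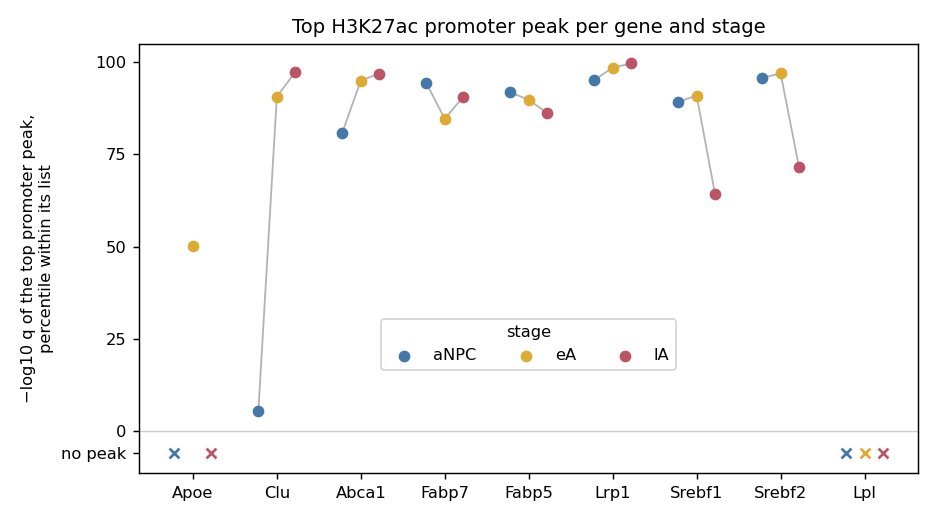
Top H3K27ac peak at the promoter of each gene in aNPC, eA and lA (points, left to right), as the percentile of its −log10 q among all peaks of its list; crosses mark promoters without a peak, and the top peak of a gene may lie at different start sites in different stages. Clu moved from 5.58 to 90.6 and 97.3, while Srebf2 was lower in lA, at 71.4.

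Apoe, the main lipid carrier of astrocyte lipoproteins (chr7:20281458-20284515, minus strand), had 2 H3K27ac peaks in its window in aNPC and 5 at each later stage. They covered 4.16%, 10.4% and 11.8% of the window, which was as much as or more than in 65.3%, 91.9% and 95.1% of coding genes. The weight of this acetylation lay outside the Apoe promoter. In eA, the promoter held 2 peaks, with summits 192 bp upstream and 13 bp downstream of the nearest start site, at percentiles 30.2 and 50.0. In lA, the closest peak lay 1.38 kb upstream, at percentile 32.0, and in aNPC there was none on that side of the gene. The promoter carried H3K4me1 at all 3 stages, at percentiles 72.5, 65.4 and 56.6.

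A site 1.81 kb upstream of Apoe had H3K27ac in eA (percentile 68.7) and lA (76.1) and none in aNPC, where H3K4me1 was already present at percentile 52.8. H3K4me1 there stood at percentile 82.6 in eA and 85.1 in lA. The site is shown because it held a match to the STAT motif TTCCNGGAA within 100 bp of an H3K27ac summit. Whether a STAT protein acts there was not tested. No other peak of the 9 genes held this motif at that distance, but with a window of 500 bp around the summit Clu, Lpl and Srebf1 held it too. The site is shown with the sequence around the weaker of the summits at the Apoe promoter in eA, since the stretch around the stronger overlapped an exon, both on the plus strand of mm9 and thus opposite to the direction of Apoe transcription. Capitals mark the match to STAT, at chr7:20286280-20286288, and, after it, the reverse complement of the RBPJ motif GTGGGAA, at chr7:20286325-20286331.
Apoe upstream site in lA, chr7:20286225-20286424: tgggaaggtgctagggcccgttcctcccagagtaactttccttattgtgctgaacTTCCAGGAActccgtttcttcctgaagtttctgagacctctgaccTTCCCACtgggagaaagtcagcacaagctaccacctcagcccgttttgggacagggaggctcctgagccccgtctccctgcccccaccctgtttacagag
Apoe promoter in eA, chr7:20284607-20284806, with no match to any motif searched: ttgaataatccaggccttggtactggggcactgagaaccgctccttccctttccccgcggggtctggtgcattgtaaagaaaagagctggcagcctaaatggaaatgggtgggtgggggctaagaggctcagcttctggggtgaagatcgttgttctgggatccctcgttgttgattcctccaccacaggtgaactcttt

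Downstream of Apoe, 2 sites were acetylated at every stage, 4.17 and 5.10 kb from the nearest Apoe start site. The nearer of them stood at percentiles 35.9, 82.5 and 95.0 in aNPC, eA and lA. The farther stood at percentiles 14.1, 84.1 and 87.6. Each overlapped a promoter of Apoc1, another apolipoprotein gene, but at the nearer site only the peak of aNPC did so. The stronger peaks there in eA and lA overlapped no promoter. The start sites of Apoc1 were closer to these sites than those of Apoe, and the lists do not tell which gene such a site serves. Both carried H3K4me1 at all 3 stages. A weaker H3K27ac site 3.27 kb downstream was found in lA only, at percentile 32.2.

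Clu, which encodes clusterin or apolipoprotein J (chr14:66587320-66600385, plus strand), had 3, 4 and 2 H3K27ac peaks in aNPC, eA and lA. Its number of peaks changed little, but its promoter moved from the bottom to the top of the lists. The top promoter peak had a −log10 q of 3.38, 69.0 and 59.9 in aNPC, eA and lA, at percentiles 5.58, 90.6 and 97.3. The differences from aNPC were 85.0 and 91.7 percentile points. These peaks belonged to 1 site. Among the 10104 coding genes with a promoter peak at every stage, taking the top peak at any start site of a gene, 99.98% and 99.99% had the same or a smaller difference, and their medians were 1.16 and -0.646 points. With a minimum −log10 q of 5, Clu had no promoter peak in aNPC and would count as a gene that acquired H3K27ac there after aNPC.

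The acetylated stretch of Clu in eA and lA lay at internal start sites, 85 bp upstream of the nearest in eA and 99 bp upstream in lA, and a second site with its top summit 46 bp downstream of another start site stood at percentile 88.0 in eA and 89.4 in lA. In aNPC this second site had no peak. H3K4me1 peaks at the stretch upstream of the first of these start sites were at percentiles 39.9, 81.2 and 69.8 in aNPC, eA and lA, and those at the second site were at 46.3, 54.2 and 85.7, so that this mark was listed at both in aNPC. A weak site 1.38 kb upstream was acetylated in aNPC and eA (percentiles 20.8 and 2.49), and an intronic peak in eA was at percentile 0.411. The sequence of the strongest summit, up to the base before the exon, is shown because, of the 7 promoters with a peak at every stage, it changed its place in the H3K27ac lists the most, and it held no match to the motifs searched.
Clu promoter in lA, chr14:66589258-66589456, plus strand: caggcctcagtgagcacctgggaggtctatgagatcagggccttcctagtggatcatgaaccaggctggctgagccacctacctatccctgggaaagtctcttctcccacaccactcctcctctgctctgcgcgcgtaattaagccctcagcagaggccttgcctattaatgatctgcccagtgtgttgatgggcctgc

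Abca1, the transporter that passes cholesterol and phospholipid to apolipoproteins (chr4:53043659-53172767, minus strand), had the most distal sites of the 9 genes. Its window held 4, 11 and 11 H3K27ac peaks in aNPC, eA and lA, and 13, 16 and 22 H3K4me1 peaks. Of 13 distal sites (peaks merged over the stages, away from the promoters of all coding genes), 11 were gained, meaning that they had H3K27ac in eA or lA and none in aNPC. Among these, 5 were acetylated in both eA and lA, 3 in eA only and 3 in lA only. H3K4me1 was already found in aNPC at 7 of the 11, including all 5 that were acetylated in both later stages. All 13 sites lay in the introns of Abca1. Some gained sites were weak: those at 32.3 and 32.8 kb were at percentiles 7.11 and 7.34 in eA. Those at 20.9 and 69.9 kb were at 7.29 and 11.5 in lA. Nor were all of them separate stretches. The gained site at 38.2 kb shared an H3K4me1 peak of aNPC with a site at 37.5 kb acetylated at every stage. The one at 69.9 kb shared another with a site at 70.6 kb acetylated in aNPC only.

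The gained site of Abca1 that was strongest in lA lay 43.4 kb into the gene and was at percentile 70.0 in eA and 95.2 in lA. Another, 12.7 kb into the gene, was at 34.6 and 71.6. A site at 37.5 kb had H3K27ac at every stage and stood at percentiles 38.2, 53.4 and 87.2. These 3 intronic sites were all placed higher in lA than in eA. A gained site at 92.4 kb, closer to the start site of Nipsnap3b than to that of Abca1, was the strongest in eA, at percentile 76.3, with 75.5 in lA, and an H3K4me1 peak there was at percentile 99.4 in eA and 98.6 in lA. The promoter itself was acetylated at each stage, at percentiles 80.9, 94.9 and 96.8, and held the RUNX motif TGTGGTT 102 bp downstream of the start site. The intronic summit at 43.4 kb is shown as the strongest gained distal site of Abca1 in lA. The window around the summit of lA held no match to the motifs searched, whereas around the summit of eA the same site held the RUNX motif at chr4:53129159-53129165, 31 bp from that summit.
Abca1 intron in lA, chr4:53129292-53129491, plus strand: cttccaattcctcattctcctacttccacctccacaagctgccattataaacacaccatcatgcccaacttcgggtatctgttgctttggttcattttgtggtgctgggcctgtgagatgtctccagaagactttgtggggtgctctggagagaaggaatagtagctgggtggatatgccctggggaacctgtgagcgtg

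**Figure D3:**
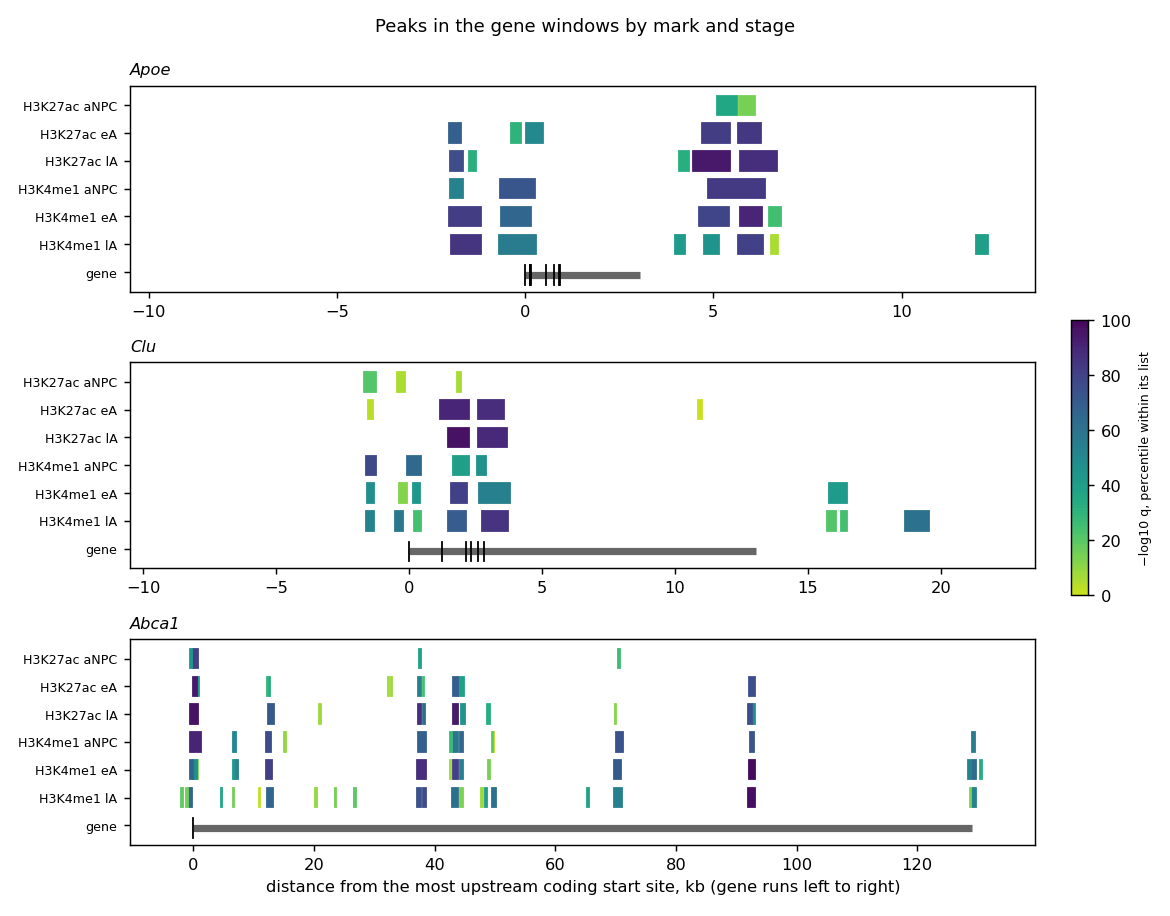
Peaks in the windows of Apoe, Clu and Abca1 for each mark and stage, against the distance in kb from the most upstream coding start site; the grey bar is the gene, ticks are coding start sites, and the colour gives the percentile of the peak within its list. In Abca1, H3K27ac appeared in eA or lA at 11 of 13 distal sites, of which 7 had H3K4me1 in aNPC.

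Lrp1, a large endocytic receptor for apolipoprotein E (chr10:126975217-127058204, minus strand), had 10, 15 and 8 H3K27ac peaks in aNPC, eA and lA, and 14, 21 and 14 H3K4me1 peaks. Its promoter had the highest placed H3K27ac peak of the 9 genes in eA and lA, at percentiles 98.5 and 99.6, after 95.0 in aNPC. No H3K4me1 peak overlapped the promoter, and those nearest to it lay on its flanks. Of 11 distal sites, 3 were acetylated at every stage, 4 were gained and 4 had H3K27ac in aNPC but not in lA. An intronic site 13.5 kb upstream of an internal start site was at percentiles 79.9, 88.2 and 96.3 in aNPC, eA and lA. In the opposite direction, an intronic site 15.6 kb from the upstream start sites stood at percentile 79.2 in aNPC and had no peak later. A site 40.7 kb from the internal start site and closer to Nxph4 fell out of the lA list after percentiles 84.5 in aNPC and 49.7 in eA. The promoter summit is shown as the highest placed peak, with the RBPJ motif in capitals 324 bp upstream of the start site.
Lrp1 promoter in lA, chr10:127058461-127058660, plus strand: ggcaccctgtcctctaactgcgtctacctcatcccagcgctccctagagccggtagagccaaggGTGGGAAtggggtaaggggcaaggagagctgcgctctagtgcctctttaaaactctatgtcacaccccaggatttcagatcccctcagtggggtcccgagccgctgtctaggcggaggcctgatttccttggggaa

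Lpl, lipoprotein lipase, which frees fatty acids from lipoproteins (chr8:71404390-71431347, plus strand), had no H3K27ac peak at its promoter at any stage. H3K4me1 was there at percentiles 58.8, 11.7 and 56.4 in aNPC, eA and lA. Its window held 1, 2 and 2 H3K27ac peaks in aNPC, eA and lA, all of them beyond the end of the gene. A site 28.6 kb from the start was acetylated at every stage, at percentiles 40.0, 23.8 and 64.2. A site at 27.9 kb was gained, at percentiles 29.7 in eA and 57.1 in lA. An H3K4me1 peak spanned this downstream stretch at percentiles 77.9, 85.6 and 80.7 in aNPC, eA and lA.

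Fabp7, the brain fatty acid binding protein that is abundant in radial glia and progenitors (chr10:57504687-57508256, plus strand), had its widest acetylation in aNPC. Its window held 7, 4 and 3 H3K27ac peaks in aNPC, eA and lA. They covered 22.6%, 13.6% and 10.1% of the window, which was as much as or more than in 99.9%, 96.6% and 92.0% of coding genes. The promoter stayed acetylated, with a peak over an intron at percentiles 94.3, 84.6 and 86.3 and another upstream of the start site at 92.2, 82.9 and 90.6. None of its 5 distal sites was gained after aNPC. Of these, 2 had H3K27ac in aNPC only, 2 in aNPC and eA, and 1 in aNPC and lA. H3K4me1 was less restricted in time, and at the downstream sites, which were closer to Smpdl3a, it was found at all 3 stages.

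The strongest distal site of Fabp7 lay 8.10 kb upstream, at percentile 69.0 in aNPC, with H3K4me1 in aNPC and eA and neither mark in lA. The site next to it, 7.5 kb upstream, had H3K27ac in aNPC and lA, at percentiles 56.7 and 36.0, and H3K4me1 at all 3 stages. Only part of this upstream stretch was thus without both marks in lA. The site at 8.10 kb is shown as that part, with the RUNX motif TGTGGTT in capitals, 91 bp from the summit.
Fabp7 upstream site in aNPC, chr10:57496491-57496690, plus strand: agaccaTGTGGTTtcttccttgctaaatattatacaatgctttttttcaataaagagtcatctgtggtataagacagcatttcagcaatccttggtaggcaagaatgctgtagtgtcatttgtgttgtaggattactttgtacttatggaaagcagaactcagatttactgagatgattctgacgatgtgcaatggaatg

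Fabp5, the epidermal fatty acid binding protein (chr3:10012548-10016607, plus strand), had no distal H3K27ac site. Its H3K27ac lay in 1 promoter site, which gave 1, 2 and 2 peaks in aNPC, eA and lA. The top peak stood at percentiles 91.8, 89.7 and 86.2 in aNPC, eA and lA. The E-box CACGTG lay within 24 bp of the summit at each stage, 259 bp downstream of the nearest start site. Its window held 4, 3 and 6 H3K4me1 peaks, of which the strongest in each stage was in an intron.

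Srebf1, which encodes the SREBP-1 activators of fatty acid synthesis (chr11:60012591-60036083, minus strand), had 6, 10 and 9 H3K27ac peaks in aNPC, eA and lA. At the most upstream coding start site, a site of 1428 bp was at percentile 89.2 in aNPC and 90.9 in eA and had no peak in lA. At an internal start site, a site with its top summit 236 bp downstream stood at percentiles 78.5, 80.3 and 58.0. Next to it, a site 509 bp upstream was at percentile 45.7 in aNPC, had no peak in eA and was at 64.1 in lA, where it was the top promoter peak of the gene. The start sites of Srebf1 thus did not move together.

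The upstream flank of Srebf1 gained H3K27ac. A site 4.78 kb upstream had a −log10 q of 4.93, 54.2 and 58.4 in aNPC, eA and lA, at percentiles 21.4, 87.5 and 97.1. A neighbouring site 3.73 kb upstream had no peak in aNPC and was at percentile 55.9 in eA and 79.0 in lA. Of the 10 distal sites of Srebf1, 7 were gained and 3 were acetylated at every stage. Of the gained sites, 3 had H3K27ac in eA only, 2 in lA only and 2 in both. H3K4me1 was found in aNPC at 6 of the 7 gained sites. The summits of the gained sites 8.65 kb downstream, 6.59 kb upstream and 11.3 kb upstream lay inside the neighbouring genes Rai1 or Tom1l2. With a minimum −log10 q of 5, the site 4.78 kb upstream had no peak in aNPC and would count as gained. A site 7.08 kb downstream would then keep its peak in aNPC only. The site 4.78 kb upstream also held the SREBP sterol element TCACNCCAC, to which the SREBP proteins bind, within 100 bp of the summits of aNPC and eA, and the edge of the window around the summit of lA cut through it. It is shown around the summit of eA, beside a match in a weak intronic site of Srebf2 that was found in lA only, at percentile 2.27. These were the places with this element in windows of 200 bp, and with 500 bp Lrp1 held it as well. The element is in capitals, in Srebf2 as its reverse complement.
Srebf1 upstream site in eA, chr11:60038738-60038937, plus strand: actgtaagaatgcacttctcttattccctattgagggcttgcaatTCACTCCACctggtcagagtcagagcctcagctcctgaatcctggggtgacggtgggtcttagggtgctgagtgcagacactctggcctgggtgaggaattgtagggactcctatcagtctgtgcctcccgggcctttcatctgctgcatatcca
Srebf2 intron in lA, chr15:81994709-81994908, plus strand: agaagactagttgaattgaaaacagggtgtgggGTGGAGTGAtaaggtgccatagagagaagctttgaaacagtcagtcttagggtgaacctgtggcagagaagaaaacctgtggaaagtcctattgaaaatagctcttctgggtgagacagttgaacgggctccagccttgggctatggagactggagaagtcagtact

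Srebf2, which encodes the SREBP-2 activator of cholesterol synthesis (chr15:81977696-82035806, plus strand), had 7, 8 and 9 H3K27ac peaks in aNPC, eA and lA. Its top promoter peak stood at percentiles 95.7, 96.9 and 71.4 in aNPC, eA and lA, with −log10 q of 132 in aNPC and 122 in eA. The difference between lA and aNPC was -24.2 points, and 8.06% of the 10104 genes with a promoter peak at every stage had the same or a lower difference. H3K4me1 at the promoter was at percentiles 80.9, 71.3 and 85.8. Of 10 distal sites, 5 were gained, 3 had H3K27ac in aNPC but not in lA, and 1 was acetylated at every stage. Those between 45.5 and 59.7 kb from the start site, gained ones among them, lay closer to a start site of Tnfrsf13c. A pair of gained sites lay 2.59 and 3.22 kb upstream, at percentiles 46.3 and 31.4 in eA and 71.3 and 66.7 in lA. Both had H3K4me1 in aNPC.

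**Figure D4:**
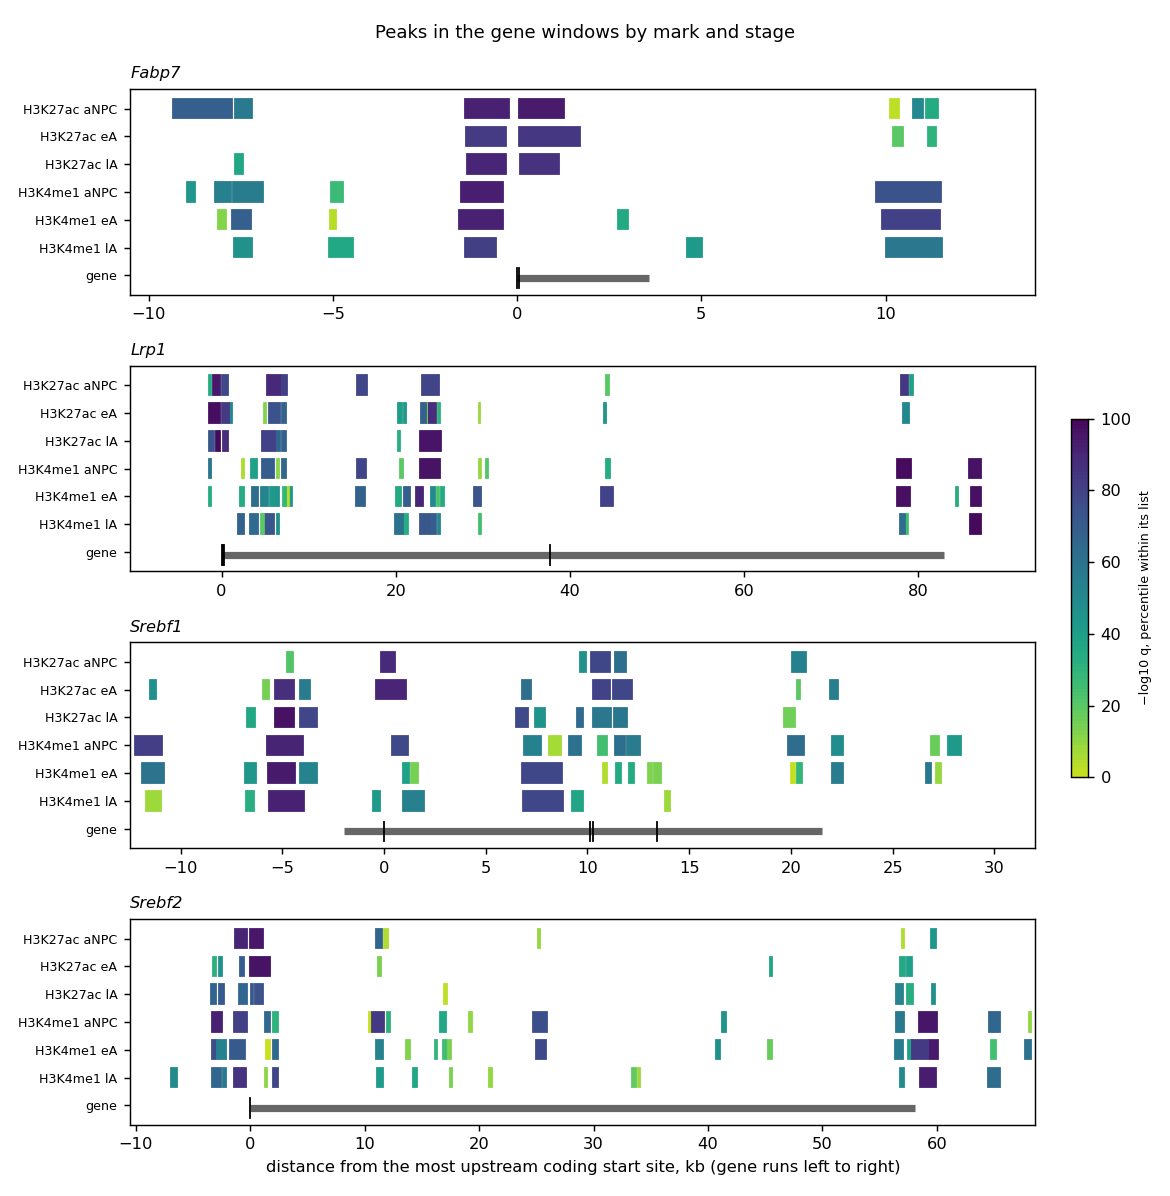
Peaks in the windows of Fabp7, Lrp1, Srebf1 and Srebf2 for each mark and stage, against the distance in kb from the most upstream coding start site; the grey bar is the gene, ticks are coding start sites, and the colour gives the percentile of the peak within its list. Of the 5 distal sites of Fabp7, 2 had H3K27ac in aNPC only, and upstream of Srebf1 the site at 4.78 kb went from percentile 21.4 to 87.5 and 97.1.

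Away from promoters, the 9 windows held 56 distal H3K27ac sites out of 71503 in the windows of all coding genes. Of the 56 sites, 32 were gained after aNPC, against 49.3% of all distal sites. Sites of aNPC only numbered 7, against 22.1%, and 9 sites were acetylated at every stage, against 20.4%. A gained site was found in the windows of 7 genes, all but Fabp7 and Fabp5, whereas 46.3% of coding genes had at least 1. A site that was acetylated in aNPC but not in lA was found in 5 genes, Clu, Abca1, Fabp7, Lrp1 and Srebf2, against 31.5% of coding genes. A longer window has more room for sites, but the number did not follow length alone. Srebf1 had 10 distal sites in a window of 43.5 kb, and Lpl had 2 in 47.0 kb. Abca1, Lrp1, Srebf1 and Srebf2 together had most of the 56 sites.

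The gained sites were examined for H3K4me1 before they were acetylated. In aNPC, 20 of the 32 gained sites had an H3K4me1 peak, against 50.7% of the gained distal sites of all genes. Of those acetylated in both eA and lA, 12 of 13 had H3K4me1 in aNPC, against 69.1% of such sites of all genes. Of those acetylated in eA only, it was 5 of 11, against 56.9%, and in lA only 3 of 8, against 31.8%. At 6 gained sites H3K4me1 was first found in eA, at 1 in lA, and at 5 at no stage. Conversely, 58 of 118 H3K4me1 regions in the windows had no H3K27ac at any stage, against 57.2% of such regions in the windows of all coding genes, and 17 of them were in Abca1 and 15 in Srebf2.

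**Figure D5:**
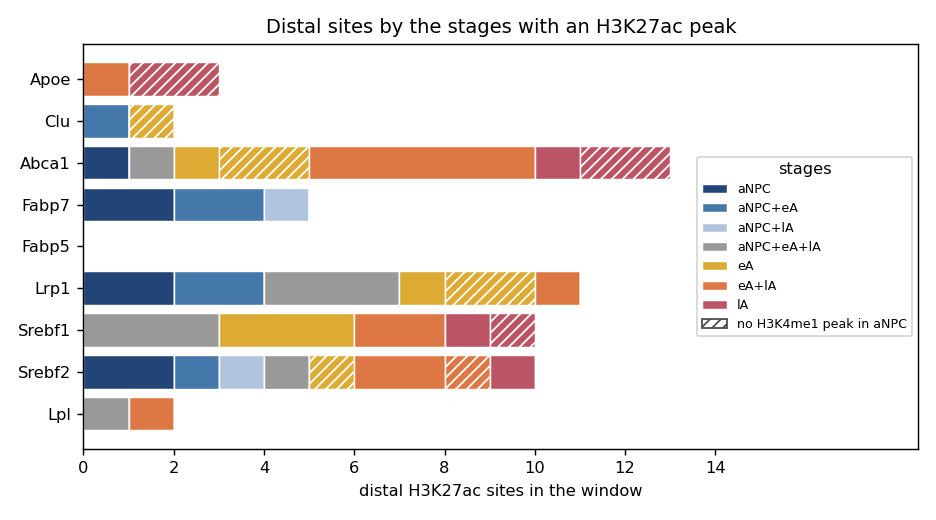
Distal H3K27ac sites in the window of each gene, coloured by the stages with an H3K27ac peak; hatched parts are sites without an H3K4me1 peak in aNPC. Abca1 had 13 sites, 11 of them without H3K27ac in aNPC, Fabp7 had 5, all with H3K27ac in aNPC, and Fabp5 had none.

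Exact motif matches on either strand within 200 bp centred on an H3K27ac summit were few. The RBPJ motif was matched in 11 of the 153 H3K27ac peaks (7.19%), at 7 places in 6 genes, against 4.89% of all H3K27ac peaks. The RUNX motif was matched in 8 peaks (5.23%, against 3.84%), in Abca1, Fabp7, Lpl and Srebf2. The E-box was matched in 5 peaks (3.27%, against 2.66%), in Fabp5 and Srebf1. These counts include the same place once for each stage with a peak. The sterol element was matched in 3 peaks (1.96%, against 0.820%), and STAT in 2 peaks, both at the Apoe site shown above (1.31%, against 0.662%). The AP-1 motif TGANTCA was matched in 3 peaks, in Abca1 and Lrp1 (1.96%, against 5.73%). No peak held the POU motif ATGCAAAT (0.868% of all peaks), the full nuclear factor I site (0.0200%) or the nuclear receptor repeat known as LXR DR4 (0.00744%). A match is a stretch of letters and no evidence of binding.

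In the wider lipid pathway, most promoters that had H3K27ac had it at every stage, and 10104 of all coding genes did so too. Of 22 genes of sterol synthesis and its control, all 22 had an H3K27ac promoter peak at each stage, and so had 9 of 10 genes of fatty acid synthesis. Among 26 further genes of lipoprotein, sterol and fatty acid transport, 17, 18 and 16 had a promoter peak over the 3 stages, with 16 at every stage and 7 at none. Over all coding genes, the shares with a promoter peak were 50.6%, 53.2% and 48.2%, and no list was tested against them. The exceptions were 3 genes. Lrp2, an endocytic receptor, had a promoter peak in eA only, at percentile 69.6. Nr1h3, the sterol sensor LXR alpha, had a promoter peak in eA only, at percentile 62.1. Cd36, a fatty acid receptor, had a promoter peak in aNPC only, at percentile 31.2.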

How the data were processed

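H3K27ac and H3K4me1 ChIP-seq peaks of aNPC, eA and lA were used. The authors aligned reads uniquely to mm9 with Bowtie, merged the 2 replicates of a stage with SAMtools (0.1.19 in the submitters' processing notes), and called peaks with MACS2 at default parameters without input. The deposited lists give each peak's position, its summit and the −log10 q that the authors' caller computed, which depends on depth and was therefore ranked within its list only. The fold and p columns, RNA-seq, knockdown libraries and 8 samples with conflicting labels were not used here. Peaks on 19 autosomes, X and Y were joined by 1 bp of overlap to GENCODE M1 coding genes with Python 3.11.15, NumPy 2.4.6 and pysam 0.24.0. All peaks lay inside the mm9 reference chromosomes. Distances refer to the nearest coding start site of the gene. H3K27ac peaks of the 3 lists that overlapped were merged into sites. No test was made, since each stage was 1 list. The 9 genes, the pathway lists, the markers and the motifs were chosen with earlier results of these data known. All 9 genes were named, and of the pathway lists only genes with an H3K27ac promoter peak at 1 or 2 stages (Hmgcs1 was not matched by symbol). Code was tested on simulated peaks. Alternatives were the peak threshold, list length, window, promoter, overlap rule and motif window. Sequences are from the mm9 reference and hold no annotated exon.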

Additional observations from a re-analysis of the deposited data

How the results depend on the processing

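The 17 counts of peaks, promoters and distal sites stayed within 1.5 times of the values given in all 83 alternatives computed. These were a minimum −log10 q of 5, lists of equal length, and windows of 5 or 20 kb. Further ones were only peaks nearest to the gene's own start site, promoters of 1 kb on each side, and sharing by summit. The peak counts of the 3 stages also lay within 1.5 times of each other, so this tolerance cannot show that their order holds. With lists of equal length, H3K4me1 peaks in lA went from 89 to 64, below the 76 of aNPC. With the minimum of 5, H3K27ac peaks numbered 31, 49 and 47 in aNPC, eA and lA, the promoter of Clu dropped out in aNPC, and those of Srebf1 and Lpl dropped out for H3K4me1 in eA, leaving 6 genes. Motif counts depended on the window: with 500 bp around the summit in place of 200 bp, matches rose to 5 peaks for the sterol element (3.27%, against 1.98% of all peaks), 12 for the E-box (7.84%, against 6.88%), 15 for AP-1 (9.80%, against 15.5%), 18 for RUNX (11.8%, against 9.74%), 7 for STAT (4.58%, against 1.87%) and 19 for RBPJ (12.4%, against 11.2%), while POU was matched in 3 (1.96%, against 2.66%) and the full nuclear factor I site in 1 (0.654%, against 0.0880%). The RBPJ share was thus closer to that of all peaks than with 200 bp. Matches to STAT were then found in Apoe, Clu, Lpl and Srebf1, and those to the sterol element in Lrp1, Srebf1 and Srebf2. No paired analysis was possible because the replicates of each stage were merged before peak calling, and for the same reason no replicate could be left out. Depth limits what is listed: a peak absent from a list can lie under the threshold, and the depth of each list is unknown.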

Other observations

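Counts of H3K4me1 regions without H3K27ac at any stage were, besides those of Abca1 and Srebf2, 5 of 17 in Srebf1, 7 of 19 in Lrp1, 3 of 4 in Lpl, 4 of 6 in Fabp5, 3 of 7 in Clu, 3 of 8 in Fabp7 and 1 of 6 in Apoe, where the share over all coding genes was 57.2%. With and without H3K27ac, Abca1 had 25 H3K4me1 regions in all and Srebf2 had 26. No difference between the genes was tested, and a region without an H3K27ac peak may carry acetylation under the threshold of the caller.

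H3K4me1 at the promoter of Lpl stood low in eA, at percentile 11.7 after 58.8 in aNPC and before 56.4 in lA. Among the 10448 coding genes with an H3K4me1 promoter peak at every stage, 1.58% had the same or a lower difference between eA and aNPC. The top H3K4me1 promoter peak of Srebf1 was at percentiles 61.4, 13.5 and 42.1 over the stages, with 1.45% of genes at the same or a lower difference, but it lay at a different start site in each stage. These genes were singled out after their values were seen. With 1 list per stage, these differences have no replicate error and were not tested.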
